A study of Mus musculus with 6 samples.

Results

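The 10 genes examined here mark the steps by which skeletal muscle is rebuilt from its stem cells. Pax7 and Myf5 stood for the stem cell, Myod1, Myog and Myf6 for commitment and differentiation, Mymk and Mymx for fusion, and Myh3, Myh8 and Chrna1 for the newly formed fibre. They were listed by name, with earlier results of these data known, and all 10 were found among the 33184 genes of the deposited table. The libraries came from skin wound tissues of db/db mice (genotype dbdb in the labels, on C57BL/Ks in the study's methods), a diabetic line, and age and sex were not given. A round full-thickness wound of 6 mm through epidermis and dermis was made on the back. Peri-wound injections of control siRNA (NC) or SFRP2 siRNA followed at dpi1 (day 1 after injury), and the tissue was frozen at dpi4, while the sample titles carry day 3. Each group had 3 libraries, and all 6 shared genotype, wound and time of injection. The treated samples are numbered siRNA-1 to siRNA-3, names that the study's supplement also gives to 3 different SFRP2 siRNA sequences. The controls are numbered NC-1 to NC-3 in the same way, while the supplement lists a single NC sequence. Whether the numbers of the treated libraries mean replicates or different sequences is not stated. Separate animals are not stated for the libraries either, so p-values measure only the spread between these samples.

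Skeletal muscle repairs itself from satellite cells, stem cells that lie on the fibre and carry the transcription factor Pax7. After injury they divide, switch on the myogenic regulatory factors Myf5 and Myod1, and leave the cycle as Myog comes on. The cells then fuse through the membrane proteins myomaker (Mymk) and myomixer (Mymx), and young fibres make embryonic and perinatal myosin heavy chain (Myh3, Myh8) before the adult forms replace them. In mouse skin a thin sheet of striated muscle, the panniculus carnosus, lies under the dermis, so a full-thickness wound can reach it.

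Values are FPKM, reads per kilobase of gene and scaled to the total reads of the library, so levels of different genes can be compared per length. The values implied totals of 42.9 to 47.1 M reads per library (M, the prefix mega), and 26081 to 27189 genes were above 0. Sfrp2 (ENSMUSG00000027996), the siRNA target, had 11.6, 40.6 and 14.1 FPKM in NC 1, 2 and 3, and 50.6, 54.6 and 55.2 FPKM in those labelled SFRP2-siRNA 1, 2 and 3. It was thus higher, not lower, under the siRNA label (log2 fold change 1.45, SE 0.43, adjusted p = 0.518). Every direction given therefore refers to the label of a library, whatever its Sfrp2 level. Actin Acta1, the highest of the mature muscle genes listed below, had 1988, 2861 and 3345 FPKM in NC and 2312, 3483 and 6532 FPKM under the SFRP2-siRNA label. Other genes of that list were far lower, down to Tnnc2 with 0.11 to 0.557 FPKM. Of the libraries, SFRP2-siRNA 3 stood apart with the highest mature muscle genes, SFRP2-siRNA 1 with low slow fibre genes, and NC 1 in its summed FPKM (441745.8, against 358452.2 to 374542.4 in the others). Values without SFRP2-siRNA 3 are therefore given beside each member.

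The short motif CANNTG, the E-box, is what the myogenic regulatory factors bind. For 3 of the 5 genes whose groups did not overlap, RefSeq (GRCm38.p6) windows were at hand, and the 150 bases before the start are shown, chosen with those values known, so that the letters can be read beside the values that follow, with every CANNTG in capitals. They lie at chr1:134289854-134290003 on the plus strand (Myog), chr2:73580339-73580488 on the minus strand (Chrna1) and chr11:67276974-67277123 on the plus strand (Myh8), and each is written 5′ to 3′ towards its gene.
Myog: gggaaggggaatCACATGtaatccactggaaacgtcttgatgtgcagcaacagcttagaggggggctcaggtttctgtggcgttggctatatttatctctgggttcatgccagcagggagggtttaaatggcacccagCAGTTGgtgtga
Chrna1: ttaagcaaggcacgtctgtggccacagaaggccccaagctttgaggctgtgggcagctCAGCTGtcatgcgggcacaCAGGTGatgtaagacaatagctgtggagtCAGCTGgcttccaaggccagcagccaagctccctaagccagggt
Myh8: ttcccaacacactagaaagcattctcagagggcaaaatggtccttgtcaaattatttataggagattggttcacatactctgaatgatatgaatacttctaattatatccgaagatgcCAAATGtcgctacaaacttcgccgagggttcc

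Chrna1 held 3 matches to CANNTG, at -92 to -87, -73 to -68 and -44 to -39 from the start, and 2 of them read CAGCTG, which is also a CANNTG. Myog held 2, at -138 to -133 and -12 to -7. Myh8 held 1, at -32 to -27, and a match to the MEF2 consensus at -99 to -90. Windows of 250 bases before the start were given for 6 of the 10 genes. On either strand CANNTG occurred in 4 of these 6 and in 66.2% of all 32851 windows, CAGCTG in 1 of 6 and 13.0%, and the MEF2 consensus in 1 of 6 and 2.9%. Pax7 and Myf5 held none of the 3 motifs in these 250 bases, and Myh3 held 1 CANNTG at -191 to -186. A match is a description of the letters only.

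All 10 genes had a higher mean in the libraries labelled SFRP2-siRNA than in NC, by 1.9-fold (Myod1) to 3.89-fold (Myh3) as the ratio of group means in FPKM. None passed an adjusted p of 0.05 with limma. The library labelled SFRP2-siRNA 3 was the highest of the 6 for 10 of 10 genes, and the lowest was always an NC library, NC 1 for 5 genes, NC 2 for 3 and NC 3 for 2. The share of all genes that were lowest in an NC library was not counted.

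**Figure D1:**
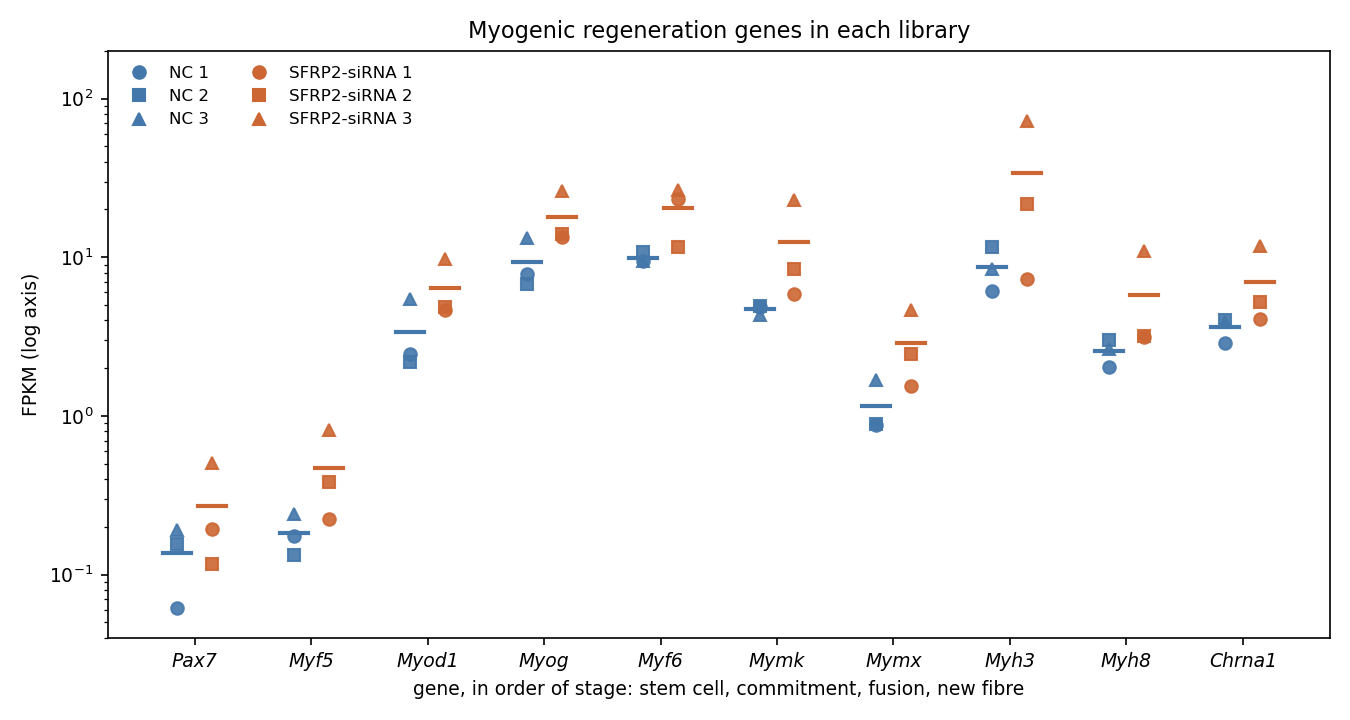
FPKM on a log axis for the 10 genes in order of stage, with NC in blue and the libraries labelled SFRP2-siRNA in orange, a marker for each library and a bar at each group mean (n = 3). The orange triangle, SFRP2-siRNA 3, is the highest point of every gene, and Pax7 and Myf5 lie below 1 FPKM throughout.

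The stem cell genes were the lowest of the 10. Pax7 (ENSMUSG00000028736), the transcription factor that defines satellite cells, had 0.0619, 0.157 and 0.19 FPKM in NC 1, 2 and 3, and 0.195, 0.117 and 0.503 FPKM in those labelled SFRP2-siRNA 1, 2 and 3. These values rested on 16 to 139 reads. The groups overlapped, since SFRP2-siRNA 2 lay below NC 2 and NC 3, and only SFRP2-siRNA 3 stood clearly above the others, 2.58-fold over the next library. Group means were 0.136 ± 0.0664 and 0.272 ± 0.204 FPKM (n = 3 each, SD), with an exact permutation p of 0.4 (two-sided), and the ratio of means, 2-fold, was 1.14-fold without SFRP2-siRNA 3.

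Myf5 (ENSMUSG00000000435), the regulatory factor of activated satellite cells, had 0.174, 0.133 and 0.241 FPKM in NC and 0.224, 0.382 and 0.815 FPKM under the SFRP2-siRNA label, on 13 to 80 reads. The groups overlapped through NC 3 and SFRP2-siRNA 1. Means of 0.183 ± 0.0544 and 0.473 ± 0.306 FPKM (n = 3 each, SD) gave an exact permutation p of 0.2, and their ratio of 2.59-fold was 1.66-fold without SFRP2-siRNA 3. Both genes had a mean under 0.5 FPKM over the 6 libraries and were left out of the fit across genes. With no such filter the log2 fold changes of FPKM + 1 were 0.15 (SE 0.12, adjusted p = 0.735) for Pax7 and 0.30 (SE 0.15, adjusted p = 0.696) for Myf5. The added 1 hides most of a change at these levels. On reads recovered from the FPKM values the fitted log2 fold changes were 0.87 (SE 0.66) for Pax7 and 1.21 (SE 0.56) for Myf5, with unadjusted limma-voom p-values of 0.228 and 0.0691.

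Of the commitment and differentiation factors, Myog and Myf6 had groups that did not overlap, while those of Myod1 overlapped. Myod1 (ENSMUSG00000009471), which commits cells to the muscle lineage, had 2.46, 2.2 and 5.44 FPKM in NC and 4.64, 4.86 and 9.74 FPKM under the SFRP2-siRNA label. NC 3 lay above SFRP2-siRNA 1 and 2, so the groups overlapped. The log2 fold change was 0.77 (SE 0.35), with an adjusted p of 0.523 and an exact permutation p of 0.3. It was 0.47 without SFRP2-siRNA 3.

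Myog (ENSMUSG00000026459), which drives terminal differentiation, had 7.88, 6.82 and 13.3 FPKM in NC and 13.4, 14.1 and 26 FPKM under the SFRP2-siRNA label. The groups did not overlap, but by a narrow margin, between NC 3 and SFRP2-siRNA 1. Its log2 fold change was 0.85 (SE 0.32), with an unadjusted p of 0.034, an adjusted p of 0.518 and an exact permutation p of 0.1, and was 0.56 without SFRP2-siRNA 3. Its ratio to Myod1 varied little, with 3.2, 3.1 and 2.44 in NC and 2.88, 2.89 and 2.67 under the SFRP2-siRNA label (exact permutation p = 0.8). The ratio of the differentiation factor to the commitment factor thus stayed between 2.44 and 3.2 in libraries whose levels spanned 4.42-fold for Myod1 and 3.81-fold for Myog.

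Myf6 (ENSMUSG00000035923), a factor that adult fibres also keep on, had 9.46, 10.8 and 9.43 FPKM in NC and 23.4, 11.6 and 26.6 FPKM under the SFRP2-siRNA label. SFRP2-siRNA 1 and 3 stood well above NC, while SFRP2-siRNA 2 lay just above NC 2. The log2 fold change was 0.91 (SE 0.29), with an unadjusted p of 0.0186, the smallest of the members, and an adjusted p of 0.518. Myf6 was the gene least tied to SFRP2-siRNA 3, which exceeded the next library by only 1.13-fold, and the log2 fold change was 0.69 without it.

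The fusion genes spanned 5.27-fold (Mymk) and 5.29-fold (Mymx) from the lowest to the highest library. Mymk (ENSMUSG00000009214), which makes the myoblast membrane ready to fuse, had 4.85, 4.93 and 4.35 FPKM in NC and 5.87, 8.44 and 22.9 FPKM under the SFRP2-siRNA label. NC was tight, at 4.71 ± 0.315 FPKM, against 12.4 ± 9.18 FPKM (SD, n = 3 each), and the groups did not overlap. The log2 fold change was 1.02 (SE 0.43), with an unadjusted p of 0.04997 and an adjusted p of 0.518. Without SFRP2-siRNA 3 it was 0.50.

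Mymx (ENSMUSG00000079471), a small protein that completes fusion, had 0.883, 0.894 and 1.68 FPKM in NC and 1.54, 2.47 and 4.67 FPKM under the SFRP2-siRNA label. NC 3 lay just above SFRP2-siRNA 1, so the groups overlapped. The log2 fold change was 0.80 (SE 0.31), with an unadjusted p of 0.0362, an adjusted p of 0.518 and an exact permutation p of 0.2, and was 0.49 without SFRP2-siRNA 3. The ratio of Mymk to Mymx was 5.49, 5.52 and 2.59 in NC and 3.81, 3.42 and 4.9 under the SFRP2-siRNA label (exact permutation p = 0.8).

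Of the newly formed fibre genes, Myh3 had the widest spread of all 10 genes, 11.9-fold from the lowest to the highest library, and Chrna1 spanned 4.05-fold. Myh3 (ENSMUSG00000020908), embryonic myosin heavy chain, had 6.09, 11.6 and 8.43 FPKM in NC and 7.33, 21.8 and 72.5 FPKM under the SFRP2-siRNA label. SFRP2-siRNA 1 lay within the NC range, so the groups overlapped, and SFRP2-siRNA 3 exceeded the next library by 3.33-fold. Means of 8.71 ± 2.77 and 33.9 ± 34.2 FPKM (n = 3 each, SD) gave a log2 fold change of 1.35 (SE 0.73, adjusted p = 0.536). Both the fold change and its SE were the largest of the 8 genes tested. Without SFRP2-siRNA 3 the fold change was 0.54.

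Myh8 (ENSMUSG00000055775), perinatal myosin heavy chain, had 2.04, 3 and 2.63 FPKM in NC and 3.16, 3.17 and 11 FPKM under the SFRP2-siRNA label. SFRP2-siRNA 1 and 2 lay just above NC 2, and SFRP2-siRNA 3 exceeded the next library by 3.46-fold. The log2 fold change was 0.74 (SE 0.41, adjusted p = 0.536), and 0.24 without SFRP2-siRNA 3. Myosin heavy chain genes are close copies that can share reads, so their values carry that uncertainty.

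Chrna1 (ENSMUSG00000027107), the alpha subunit of the muscle acetylcholine receptor, had 2.89, 4.02 and 3.91 FPKM in NC and 4.07, 5.25 and 11.7 FPKM under the SFRP2-siRNA label. The groups did not overlap, with NC 2 and SFRP2-siRNA 1 almost level. The log2 fold change was 0.69 (SE 0.34, adjusted p = 0.523), and 0.30 without SFRP2-siRNA 3.

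Read against the whole table, no gene passed an adjusted p of 0.05 with limma among the 16005 tested (0%), and 0 of the 8 members tested did. At an unadjusted p under 0.05, 1533 genes were counted, and limma-voom on the recovered reads also called 0 genes after adjustment and 1742 before. Of the 8 members tested, 4 were higher at an unadjusted p under 0.05 (Myog, Myf6, Mymk and Mymx), against 6.72% of all genes tested, and 0 were lower, against 2.86%. The groups did not overlap, with the libraries labelled SFRP2-siRNA higher, for 5 of 8 (Myog, Myf6, Mymk, Myh8 and Chrna1), against 13.9% of all genes. A log2 fold change above 0 was found for 8 of 8, against 71.8% of all genes, and one above 1 for 2 of 8 (Mymk and Myh3), against 0.444%. SFRP2-siRNA 3 was the highest library for 8 of 8, against 29.5% of all genes.

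The median log2 fold change of these 8 was 0.82 (range 0.69 to 1.35), and that of all genes 0.13. A median of this size was not particular to the members. The lists of other cell types described below had 0.84 (macrophage), 0.74 (fibroblast), -0.17 (keratinocyte) and -0.44 (adipocyte). Without SFRP2-siRNA 3 the medians were 0.49 for the members and 0.10 for all genes, and 0.95 and 0.79 for the macrophage and fibroblast lists. Still above 0 in that fit were 8 of 8 members, against 10770 of all 16005 genes. Median-of-ratios scaling moved the median of all genes to 0.000 and that of the members to 0.70. The unadjusted count of 4 depended on single libraries: it was 0 without NC 1, 1 without NC 2 and 3 without NC 3. It was 8 without SFRP2-siRNA 1, 2 without SFRP2-siRNA 2 and 1 without SFRP2-siRNA 3. With limma-voom on all 6 libraries it was 3.

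**Figure D2:**
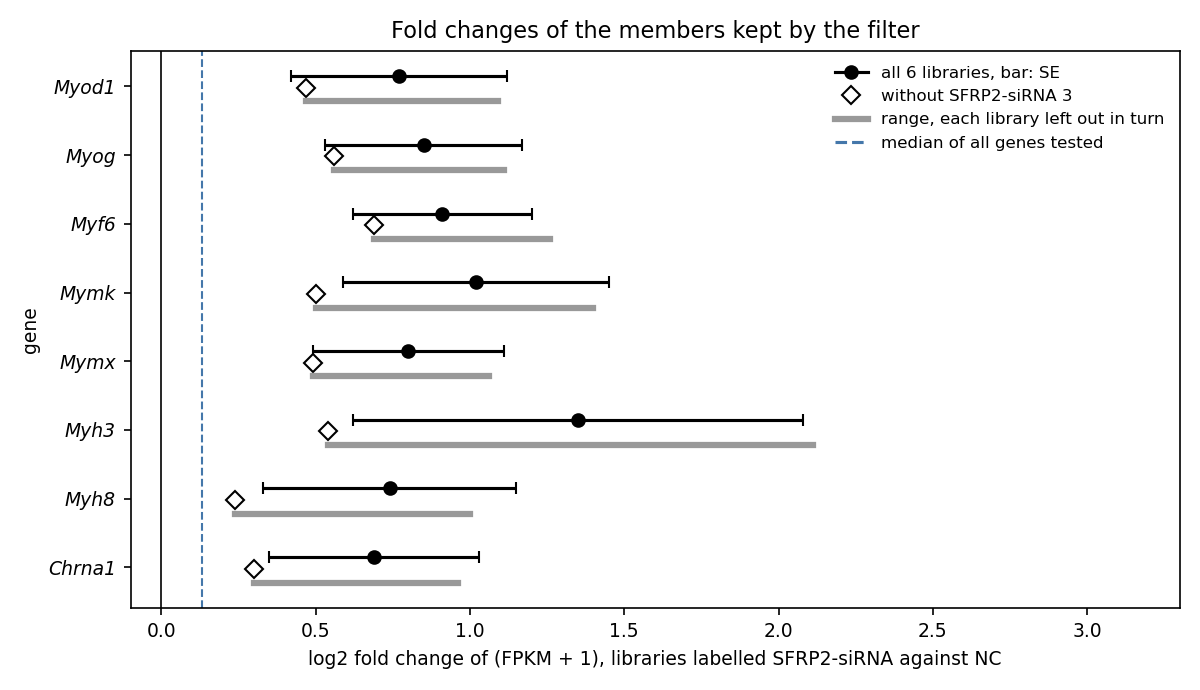
Log2 fold change of FPKM + 1, libraries labelled SFRP2-siRNA against NC, for the 8 genes tested. Black points with SE bars use all 6 libraries, open diamonds leave out SFRP2-siRNA 3, grey bars span the fits that leave out each library in turn, and the dashed line is the median of all genes, 0.13. Every bar lies above 0, and the diamonds sit at the low end of each.

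Summed by stage, the levels kept the order commitment, new fibre, fusion and stem cell in NC 1 to 3. The 2 stem cell genes together had 0.236, 0.29 and 0.431 FPKM in NC and 0.418, 0.498 and 1.32 FPKM under the SFRP2-siRNA label. The 3 commitment genes had 19.8, 19.8 and 28.2 FPKM and 41.4, 30.5 and 62.3 FPKM. The stem cell sums overlapped through NC 3 and SFRP2-siRNA 1, and the commitment sums did not overlap. The 2 fusion genes had 5.73, 5.82 and 6.03 FPKM and 7.42, 10.9 and 27.6 FPKM, and the 3 new fibre genes had 11, 18.6 and 15 FPKM and 14.6, 30.2 and 95.2 FPKM. The fusion sums did not overlap and the new fibre sums did. SFRP2-siRNA 1 and 3 thus differed in make-up: commitment genes led in SFRP2-siRNA 1 and new fibre genes in SFRP2-siRNA 3, and in SFRP2-siRNA 2 both sums were nearly equal.

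The order of single genes in NC ran from Myf6 (9.89 FPKM), Myog (9.33) and Myh3 (8.71), whose ranges overlapped, through Mymk (4.71), then Chrna1 (3.61), Myod1 (3.37) and Myh8 (2.56), which overlapped too, to Mymx (1.15) and the overlapping pair Myf5 (0.183) and Pax7 (0.136). Under the SFRP2-siRNA label the order of means was Myh3, Myf6, Myog, Mymk, Chrna1, Myod1, Myh8, Mymx, Myf5 and Pax7. Among these neighbours only Mymx and Myf5 were separated by their ranges. Myh3 was thus the third in NC and the first here, where its libraries ranged from 7.33 to 72.5 FPKM.

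Other genes of the same programme were read from lists, whose counts stand beside the shares of all genes given above. Of 16 further satellite cell genes, 9 were tested: 6 had a log2 fold change above 0 and 3 below (Heyl -0.38, Sdc4 -0.16 and Spry1 -0.02), a split near that of all genes. At an unadjusted p under 0.05, 3 were higher and 0 lower, and the groups did not overlap, with higher values under the SFRP2-siRNA label, for 4. The median log2 fold change was 0.29, and 0.16 without SFRP2-siRNA 3. The 3 genes named from each list are those with its smallest unadjusted p, so their separation was largely set by that choice. Fgfr4, a growth factor receptor of satellite cells and myoblasts, had 0.621, 0.554 and 1.08 FPKM in NC and 1.54, 1.27 and 2.29 FPKM under the SFRP2-siRNA label (log2 fold change 0.62, SE 0.19). Cdh15, M-cadherin of the satellite cell membrane, had 1.38, 2.2 and 2.4 FPKM and 4.26, 2.65 and 6.31 FPKM (0.81, SE 0.27). Cdon, a surface receptor that promotes myogenic differentiation, had 2.64, 4.47 and 3.5 FPKM and 5.88, 4.75 and 5.06 FPKM (0.47, SE 0.18). The groups did not overlap for any of these 3 (adjusted p = 0.518 for each). SFRP2-siRNA 3 was the highest library for 3 of the 9 tested, and for Cdon SFRP2-siRNA 1 was the highest.

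Of 16 further differentiation and fusion genes, 15 were tested, with 4 higher and 0 lower at an unadjusted p under 0.05 and 7 with groups that did not overlap, all higher. The median log2 fold change was 0.26, and 0.18 without SFRP2-siRNA 3. Rbm24, a splicing regulator of muscle, had 3.92, 4.38 and 5.98 FPKM in NC and 7.14, 6.94 and 11.4 FPKM under the SFRP2-siRNA label (log2 fold change 0.71, SE 0.22). Klhl41, a sarcomere assembly protein, had 30.4, 40.8 and 43.2 FPKM and 74.1, 44.7 and 81 FPKM (0.76, SE 0.26). Cdkn1c, a cell cycle inhibitor of differentiating myoblasts, had 4.78, 3.8 and 6.14 FPKM and 6.94, 7.54 and 15.1 FPKM (0.82, SE 0.30). The groups did not overlap for these 3 genes, with an adjusted p of 0.518 each. Klhl41 followed Myf6, with SFRP2-siRNA 2 just above NC and the other two well above.

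Of 18 further genes of newly formed or denervated fibres, 18 were tested, with 7 higher and 0 lower at an unadjusted p under 0.05 and 7 with groups that did not overlap, all higher. The median log2 fold change was 0.57, and 0.32 without SFRP2-siRNA 3. Gadd45a, a stress gene that denervated muscle switches on, had 10.5, 8.99 and 11.3 FPKM in NC and 17.5, 23.8 and 17.3 FPKM under the SFRP2-siRNA label (log2 fold change 0.86, SE 0.17, unadjusted p = 0.00161). Chrnd, the delta subunit of the acetylcholine receptor, had 0.648, 0.837 and 1.06 FPKM and 1.87, 1.73 and 3.87 FPKM (0.87, SE 0.24). Myl4, an embryonic myosin light chain, had 3.61, 3.86 and 3.44 FPKM and 6.43, 6.48 and 18.9 FPKM (1.16, SE 0.38). The groups did not overlap for these 3 genes either (adjusted p = 0.518 for each). Without SFRP2-siRNA 3 their log2 fold changes were 0.93, 0.61 and 0.69, so that of Gadd45a, which many cell types express, was no smaller without that library.

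Mature muscle genes also differed between libraries, and were highest where the members were. The 25 mature muscle genes summed to 4897, 6877 and 9331 FPKM in NC and to 5983, 9437 and 17159 FPKM under the SFRP2-siRNA label, with SFRP2-siRNA 3 highest and the groups overlapping. Of the 24 tested, 21 had a log2 fold change above 0, 22 were highest in SFRP2-siRNA 3, and 0 had an unadjusted p under 0.05. Actn3, of the fast fibre Z-disc, had 55.9, 97.9 and 182 FPKM in NC and 132, 179 and 405 FPKM under the SFRP2-siRNA label (log2 fold change 1.08, SE 0.55, adjusted p = 0.528). Des, the muscle intermediate filament desmin, had 141, 190 and 217 FPKM and 230, 207 and 436 FPKM (0.61, SE 0.33, adjusted p = 0.536). Mybpc2, a myosin binding protein of fast fibres, had 22.8, 56.5 and 90.5 FPKM and 60.1, 82.2 and 188 FPKM (0.98, SE 0.59, adjusted p = 0.551). The groups overlapped for each of these 3 genes. Without SFRP2-siRNA 3 their log2 fold changes were 0.61, 0.27 and 0.51, and the median of the 24 went from 0.58 to 0.23. In whole tissue more muscle cells and more RNA per cell cannot be told apart.

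The mean log2(FPKM + 1) of the 8 members tested was 2.27, 2.46 and 2.64 in NC and 2.82, 3.05 and 4.19 under the SFRP2-siRNA label, with no overlap. That of the mature muscle genes was 6.31, 6.99 and 7.39 and 6.55, 7.40 and 8.21, with overlap. The members minus mature muscle came to -4.04, -4.53 and -4.75 in NC and -3.73, -4.35 and -4.02 under the SFRP2-siRNA label, a difference of means of 0.40 with overlapping groups. NC 3 and SFRP2-siRNA 2, single libraries picked with these values known, had mature muscle at 7.39 and 7.40 and members at 2.64 and 3.05. Within this pair single members differed. Of those tested, only Myod1 was lower in SFRP2-siRNA 2 (4.86 FPKM, against 5.44 FPKM in NC 3). Myog was nearly level (14.1 against 13.3 FPKM), and Myh3 was the furthest apart (21.8 against 8.43 FPKM). The part of mature muscle content in the members' differences was not tested.

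**Figure D3:**
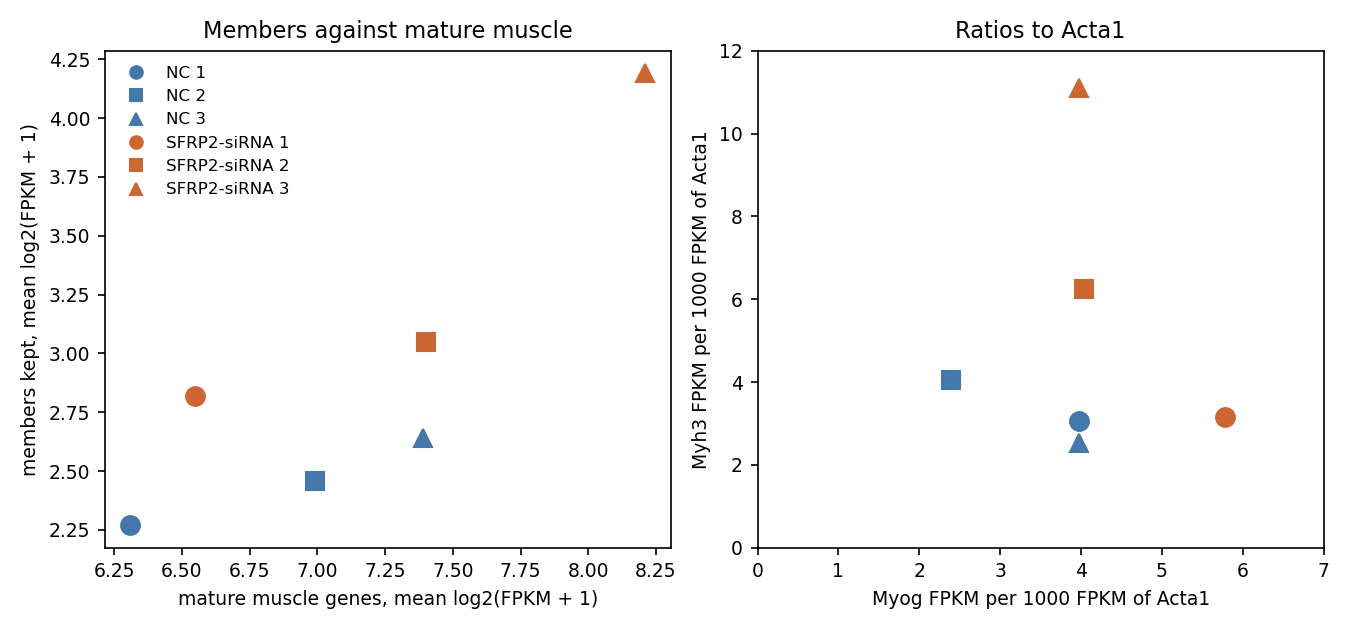
Left, mean log2(FPKM + 1) of the 8 members tested against that of the mature muscle genes in each library. Right, Myh3 against Myog, both as FPKM per 1000 FPKM of Acta1. On the left SFRP2-siRNA 3 is highest on both axes, and on the right SFRP2-siRNA 1 is highest for Myog and SFRP2-siRNA 3 for Myh3.

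Relative to Acta1, actin of mature fibres, Myog was at 3.97, 2.39 and 3.97 FPKM per 1000 in NC and at 5.78, 4.04 and 3.98 under the SFRP2-siRNA label (exact permutation p = 0.1, the smallest that 3 against 3 allow). SFRP2-siRNA 1 was highest on this ratio, and the other 2 barely exceeded NC 1 and 3. Myh3 was at 3.06, 4.06 and 2.52 per 1000 in NC and at 3.17, 6.25 and 11.1 under the SFRP2-siRNA label (exact permutation p = 0.2). SFRP2-siRNA 2 and 3 were highest on this ratio, and SFRP2-siRNA 1 lay within NC.

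Of the summed FPKM of 6 skeletal myosin heavy chain genes, Myh3 and Myh8 together made 2.78%, 2.33% and 1.44% in NC and 1.72%, 3.31% and 5.85% under the SFRP2-siRNA label. Mean shares were 2.18 ± 0.682% and 3.63 ± 2.08% (n = 3 each, SD), and the groups overlapped (exact permutation p = 0.4). The adult fast forms Myh4 and Myh1 made most of the rest: Myh4 ranged from 31.3% in NC 1 to 61.5% in SFRP2-siRNA 3, and Myh1 from 18.5% in SFRP2-siRNA 3 to 44.6% in SFRP2-siRNA 1. Developmental myosin was thus a minor share in every library.

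SFRP2-siRNA 1 stood apart in its slow fibre genes, which were singled out after their values were seen. Myh7, slow myosin heavy chain, had 19.3, 56.5 and 32 FPKM in NC and 0.257, 42.5 and 33.7 FPKM under the SFRP2-siRNA label. Tnni1, slow troponin I, had 27.5, 25.9 and 21.3 FPKM and 2.97, 35.8 and 38.6 FPKM. Both were lowest in SFRP2-siRNA 1, far below the other 5 libraries, while Myog, Myf6 and Myod1 in that library were not low.

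**Figure D4:**
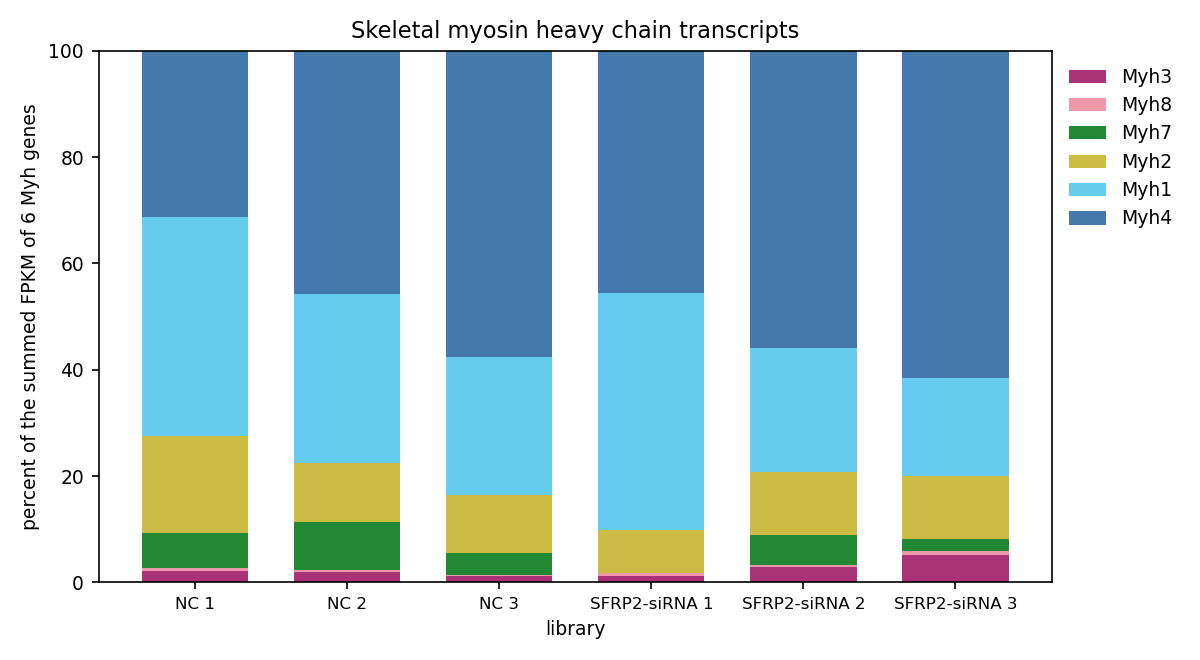
Share of each of 6 skeletal myosin heavy chain genes in their summed FPKM, in percent, by library. Myh3 and Myh8, at the foot of each bar, reach 5.85% together in SFRP2-siRNA 3, and Myh7 is nearly absent (0.0421%) in SFRP2-siRNA 1.

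The 2 myosins did not move together in every library. The ratio of Myh3 to Myh8 was 2.99, 3.87 and 3.2 in NC and 2.32, 6.87 and 6.61 under the SFRP2-siRNA label (exact permutation p = 0.4). It was highest in SFRP2-siRNA 2 and 3 and lowest in SFRP2-siRNA 1. Myh3 over Myog was 0.773, 1.7 and 0.635 in NC and 0.549, 1.55 and 2.79 under the SFRP2-siRNA label (exact permutation p = 0.7), so NC 2 stood with SFRP2-siRNA 2 rather than with its own group.

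Summed levels of genes of other cell types also differed between libraries. The 10 fibroblast genes summed to 987, 2128 and 1144 FPKM in NC and 2442, 2446 and 2364 FPKM under the SFRP2-siRNA label, with 8 of 10 higher at an unadjusted p under 0.05. The 10 macrophage genes summed to 850, 1466 and 984 FPKM and 2401, 1840 and 1637 FPKM, with 7 of 10 higher. Of all genes, 6.72% were higher at that threshold. SFRP2-siRNA 3 was the highest library for 1 of the 10 fibroblast genes and 0 of the 10 macrophage genes. The 8 adipocyte genes summed to 2190, 1747 and 2007 FPKM and 2390, 1285 and 888 FPKM, with 1 lower at an unadjusted p under 0.05, and the 8 keratinocyte genes to 3839, 4732 and 6432 FPKM and 6758, 5657 and 3390 FPKM, with 1 lower, where 2.86% of all genes were lower at that threshold. By these sums SFRP2-siRNA 3 was thus lowest for adipocyte and keratinocyte genes and highest for muscle genes. Single keratinocyte genes were mixed. Krt1 was lowest in SFRP2-siRNA 3 (131 FPKM), while Krt5 was lowest in NC 1 (1056 FPKM, against 1261 FPKM in SFRP2-siRNA 3). Trp63 had 21.8 FPKM in SFRP2-siRNA 3, near its highest value of 23.5 FPKM in NC 3. The part of this tissue make-up in the members' values was not tested.

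The 8 members were alike in their pattern over the 6 libraries. Pearson's r between a member and the mean of the other members ran from 0.71 (Myf6) through 0.87 (Myod1) to 0.98 (Chrna1), which describes 6 points, of which SFRP2-siRNA 3 lies far from the rest. The 10 other genes most like their mean were Rpusd2 (r = 0.997), Zc3hc1, Kcnj11, Polr2a, Bex1, Ankrd26, Gm11739, Gm9929, Tmem198b and Zfp41 (0.990). Kcnj11, a potassium channel subunit, had 2.78, 2.87 and 3.45 FPKM in NC and 3.64, 3.97 and 7.01 FPKM under the SFRP2-siRNA label. Bex1 had 1.55, 1.85 and 2.59 FPKM and 2.79, 3.2 and 6.94 FPKM. Kcnj11 and Bex1 had the largest log2 fold changes of the 10, 0.50 and 0.76. The rest ran from 0.14 (Ankrd26) to 0.25 (Rpusd2), since r takes no account of the size of a change. None of these 10 was on a muscle list. An r above 0.8 was found for 20 of 24 mature muscle genes and for 1404 of all 15997 other genes.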

How the data were processed

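RNA was extracted from whole wound tissue with TRIzol and sequenced as paired-end mRNA libraries. The submitters' processing notes name HISAT2, featureCounts and Subread; versions, genome build and annotation are not given in the sources used here. The authors deposited FPKM values per gene, 1 column per library, and state DESeq2 for their own tests. FPKM are not counts, so limma 3.58.1 in R 4.3.3 (lmFit, eBayes with an intensity trend) was run on log2(FPKM + 1) for 16005 genes, those whose mean over the libraries reached 0.5 FPKM, two-sided, with Benjamini-Hochberg adjustment over all of them. Fold changes are on that scale and understate the change of low genes. Single values were compared by an exact two-sided permutation test, which cannot go below p = 0.1 with 3 libraries in each group. Symbols matched 32582 of 33184 gene IDs.

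Reads were recovered by multiplying FPKM by gene lengths from GENCODE vM21. They came out whole within 0.02 reads for 98.3% of genes with a length, and even numbers made 64.4% of the values from 1 to 20 reads, so mates appear to be counted singly and reads are not independent. Limma-voom on these reads, for 18958 genes with a mean of at least 10 reads, was added after the data were seen. Samples were grouped by title. No pair of libraries within a group was a duplicate (pairs across the groups were not compared). The fits were tested on simulated data. The members, lists and tests were chosen with earlier results of these data known. Named genes were Sfrp2, the members, the 3 smallest unadjusted p-values of each muscle list and the 10 genes most like the members' mean. Alternatives were another pseudocount (0.1), no filter, a higher filter (2 FPKM), other scalings, no trend, sample weights, a replicate block and leaving out each library. Promoters came from RefSeq on GRCm38.p6 and were searched on both strands.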

Additional observations from a re-analysis of the deposited data

How the results depend on the processing

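Over 130 alternative fits of single members, 130 kept their direction and stayed on the same side of an adjusted p of 0.05, and the smallest adjusted p was 0.209. No gene of the table passed in any fit, with a smallest adjusted p of 0.119 under sample weights. Staying on the same side therefore does not set the members apart, and the fits reuse the same 6 libraries. The members' median log2 fold change of 0.82 ranged from 0.49 (without SFRP2-siRNA 3) to 1.01 (without SFRP2-siRNA 1) when a library was left out, and was 0.64 with sample weights, 0.70 with median-of-ratios scaling and 0.97 with limma-voom.

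The 4 members higher at an unadjusted p under 0.05 became 1 with median-of-ratios scaling and 2 with sample weights, and 0 (without NC 1) to 8 (without SFRP2-siRNA 1) when a library was left out. The count over all genes, 1075, became 422 with median-of-ratios scaling and 474 with quantile normalization, and 460 to 1566 when a library was left out. The median of the satellite cell list, 0.29 over the 9 genes tested, was 0.13 with sample weights. With no filter it was 0.12, but over all 16 genes, as those too low for the filter were added. The cause of the other shifts was not tested. The difference between members and mature muscle, 0.40, was 0.25 to 0.60 when a library was left out and 0.56 with a pseudocount of 0.1.

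Replicate numbers were not taken as pairs: same-numbered deviations correlated at -0.05, -0.15 and 0.38 over genes. With a replicate block the members' count was 5, their median 0.82, and 0 genes passed, with a smallest adjusted p of 0.193. With 3 libraries a group and 1 that leads every member, small differences were not detectable, and Pax7 and Myf5 rested on at most 139 reads.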
